A study of Mus musculus with 6 samples.

Results

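The expression of 9 genes of the phosphoinositide 3-kinase (PI3K) pathway was followed in regulatory T cells of the mouse (Tregs, suppressive CD4 cells whose identity rests on the transcription factor Foxp3): Pik3cd, Pik3cg, Pik3r1 and Pik3r5, which encode subunits of the kinase, and Pik3ip1, Inpp5d, Inpp4b, Phlpp1 and Tsc1, which restrain it or the kinases below it. They were chosen by gene symbol, and each of the 9 matched 1 of the 55840 genes in the deposited table. The series compared wild-type (WT) Tregs with Tregs labelled Exon2KO, in which Foxp3 carries a deletion named delta 2 in the series title, from spleen and lymph nodes. There were 3 libraries of each genotype, all of total RNA. Age, sex, strain, sorting gate and any treatment are not stated in the labels, and no library is labelled with one tissue alone.

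The columns of the table carry the genotype and a number, 2, 6 or 20, each used once per genotype, so libraries are named here WT 2 or Exon2KO 20. Total counts ran from 17998216 to 21003496. Treg and T cell transcripts (Cd3e, Cd4, Foxp3, Il2ra, Ctla4 and Ikzf2) summed to between 2767 and 3477 CPM (counts scaled to library size and, by the TMM method, to library composition) in each library. Within that list Il2ra (587 to 678 CPM in WT, 379 to 487 in Exon2KO), Ctla4 (131 to 179 and 79.5 to 89.7) and Ikzf2 (626 to 773 and 379 to 501) were lower in every Exon2KO library than in every WT library, and Cd4 (632 to 724 and 746 to 819) was higher; their part in the results was not tested. Markers of B, myeloid, CD8 and NK, and erythroid cells summed to at most 44.2 CPM per list. The stromal list summed to 164 to 190 CPM in WT and 188 to 225 CPM in Exon2KO, nearly all of it Pecam1, while Col3a1 was at 0 in every library and Col1a1 reached at most 2.96 CPM. Both libraries numbered 20 stood apart from the other 4 on the first principal component, with scores of -36.9 (WT 20) and -33.5 (Exon2KO 20) against scores from -0.710 to 33.7. In such bulk samples a change in the mixture of cells and a change of RNA per cell cannot be told apart.

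In T cells, class I PI3K turns a membrane lipid into PIP3, which recruits the kinase AKT. Antigen receptor, costimulatory and cytokine receptor signals act through the delta catalytic subunit bound to a regulatory subunit such as that of Pik3r1, while chemokine receptors act through the gamma catalytic subunit bound to that of Pik3r5. Lipid phosphatases remove PIP3 or its product, PHLPP phosphatases dephosphorylate AKT, and the TSC complex holds back mTOR complex 1. AKT keeps FOXO transcription factors out of the nucleus. Tregs are known for holding this pathway low through such brakes.

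Of the 9 genes, 1 kinase subunit and 1 brake changed. Pik3r5, the adaptor subunit of the gamma kinase, rose 1.49-fold in Exon2KO, and Phlpp1, an AKT phosphatase, fell to 0.693 of its WT level. These were the calls among the 9 genes, 1 higher and 1 lower, at an edgeR quasi-likelihood adjusted p under 0.05. With the library number as a replicate block Pik3ip1 was called higher as well (edgeR adjusted p = 0.00245). Over all 14919 tested genes 2.33% were called without the block (0.757% higher and 1.58% lower) and 9.72% with it (3.93% higher and 5.79% lower). The catalytic subunits Pik3cd and Pik3cg, the regulatory subunit Pik3r1 and the brakes Inpp5d, Inpp4b and Tsc1 were called in neither fit.

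The promoters of the 2 called genes are shown as a description, since Foxp3, altered in these cells, is a forkhead factor. A link between these sequences and the changes was not tested. Sequences are from RefSeq (build GRCm38.p6), 5′ to 3′, ending just before the gene start of the deposited table. The Phlpp1 stretch is chr1:106171619-106171751 on the plus strand (133 bases), and the Pik3r5 stretch is chr11:68431875-68432120 on the plus strand (246 bases). Capitals mark GC boxes, the letters GGGCGG or their reverse complement CCGCCC, a known binding sequence of Sp1-type factors.
Phlpp1: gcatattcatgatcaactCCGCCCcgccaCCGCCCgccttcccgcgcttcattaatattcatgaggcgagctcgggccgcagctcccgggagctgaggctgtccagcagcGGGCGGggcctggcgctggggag
Pik3r5: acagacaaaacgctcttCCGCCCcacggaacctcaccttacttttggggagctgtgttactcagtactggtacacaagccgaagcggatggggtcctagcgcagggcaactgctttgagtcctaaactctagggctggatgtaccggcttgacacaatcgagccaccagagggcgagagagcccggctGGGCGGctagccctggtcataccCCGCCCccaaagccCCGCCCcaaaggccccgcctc
The Phlpp1 stretch holds 3 GC boxes and is 67.7% G and C, and the Pik3r5 stretch holds 4 and is 61.4% G and C. For all 32851 promoters in the table, the first 133 and first 246 of the 250 bases before the RefSeq start were searched. A GC box was in 14.4% (133 bases) and 32.2% (246 bases) of these windows, whose median G and C content was 50.4% and 52.0%. The 133-base windows end short of the RefSeq start, as the Phlpp1 stretch does. Windows of that length next to the start were not counted. The forkhead core TGTTTAC, searched on both strands (reverse complement GTAAACA, which cannot hold a GC box), was in neither stretch. The same windows held this core in 1.8% (133 bases) and 3.12% (246 bases) of all promoters. All 9 genes matched the table, with 13 promoters between them. In the 250 bases before the start, 1 of these 13 held the core, the second start of Pik3cg, 92 bases upstream of it, against 3.17% of all promoters. GC boxes were not limited to the called genes. In 250 bases, 3 of the 11 promoters of the other 7 genes held one, against 32.7% of all promoters. These were at Pik3r1 (4 boxes at its first start) and Pik3cd (1 and 3 at its first and second). The same window held 6 boxes at Phlpp1 and 4 at Pik3r5. At Phlpp1 it runs past the deposited gene start, to 106171868, so the stretch printed above is its upstream part. A match is a description of letters only.

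Pik3r5 (ENSMUSG00000020901, chromosome 11, 68432121 to 68497849, plus strand, GRCm38) encodes the subunit that couples the gamma kinase to G protein subunits released by chemokine receptors. Its level was 159, 152 and 130 CPM in WT 2, 6 and 20, and 222, 233 and 199 CPM in Exon2KO 2, 6 and 20. Every Exon2KO library was above every WT library, and the library numbered 20 was the lowest of each genotype. The log2 fold change was 0.57 with an SE of 0.10 (edgeR adjusted p = 0.0170, higher in 3 of 3 numbered pairs). The groups did not overlap, as for 17.7% of all tested genes. The call was lost without WT 6 (edgeR adjusted p = 0.0567), without Exon2KO 2 (0.107) and without Exon2KO 6 (0.0620), where the log2 fold change lay between 0.51 and 0.60. In the authors' deposited table Pik3r5 has an adjusted p of 5.06e-05 at a log2 fold change of 0.57.

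Phlpp1 (ENSMUSG00000044340, chromosome 1, 106171752 to 106394250, plus strand) encodes a phosphatase that removes an activating phosphate from AKT. It stood at 63.5, 58.9 and 70.5 CPM in WT 2, 6 and 20, and at 47.7, 42.7 and 43.3 CPM in Exon2KO 2, 6 and 20. All Exon2KO libraries were below all WT libraries, and WT 20 was the highest of the 6. The log2 fold change was -0.53 with an SE of 0.09 (edgeR adjusted p = 0.0190, lower in 3 of 3 numbered pairs, as were 20.9% of all tested genes). The call was lost without WT 2 (edgeR adjusted p = 0.0867), without WT 20 (adjusted p = 0.0547), without Exon2KO 2 (adjusted p = 0.0691), without Exon2KO 6 (adjusted p = 0.0647) and without both libraries numbered 20 (-0.44, adjusted p = 0.0626). The authors' deposited table lists -0.53 with an adjusted p of 0.000684. Phlpp2, its close relative, had 17.2, 14.1 and 19.1 CPM in WT 2, 6 and 20 and 14.4, 12.0 and 14.7 CPM in Exon2KO 2, 6 and 20, with a log2 fold change of -0.29 with an SE of 0.16 (edgeR adjusted p = 0.544), which did not pass the test.

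**Figure D1:**
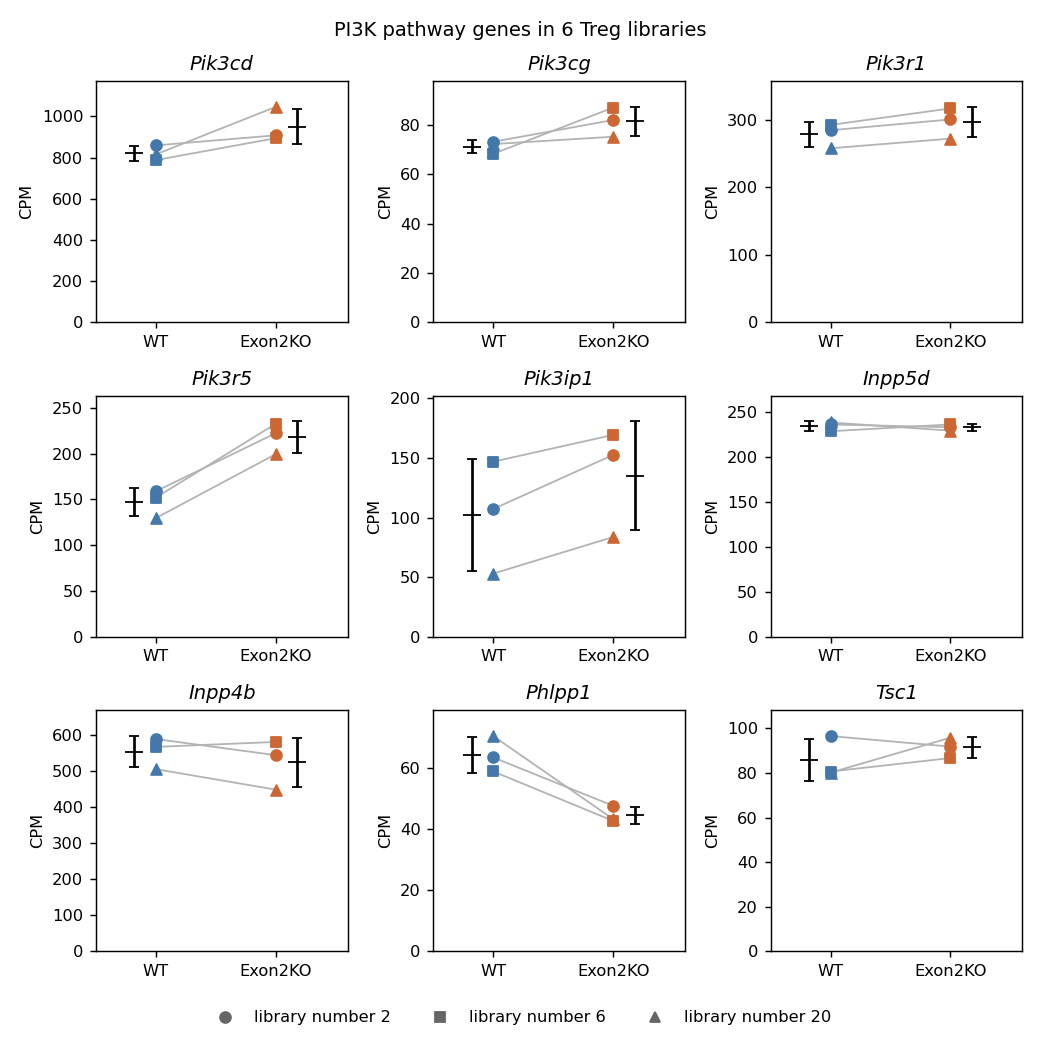
Level of each of the 9 genes in TMM-scaled CPM (vertical axes, from 0) in the 3 WT and 3 Exon2KO libraries; marker shape gives the library number, grey lines join libraries of the same number, and black bars are mean ± SD. The groups do not overlap for Pik3r5, Phlpp1, Pik3cd and Pik3cg, and Pik3ip1 is lowest in the library numbered 20 of each genotype.

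Pik3ip1 (ENSMUSG00000034614, chromosome 11, 3330401 to 3342971, plus strand) encodes a membrane protein that binds the kinase and inhibits it, and is known to be high in resting T cells. Relative to its mean it varied more between libraries of one genotype than any of the other 8 genes. Its level was 107, 147 and 53.0 CPM in WT 2, 6 and 20, and 153, 169 and 83.7 CPM in Exon2KO 2, 6 and 20. The groups overlapped, and in each genotype the library numbered 20 was the lowest and that numbered 6 the highest. Within numbers the Exon2KO library was higher each time, by 0.51 (number 2), 0.21 (number 6) and 0.66 (number 20) on the log2 scale. Of all tested genes, 21.4% were higher in Exon2KO in all 3 pairs.

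Without the number in the model, the log2 fold change of Pik3ip1 was 0.40 with an SE of 0.47 (edgeR adjusted p = 0.863), and the 95% interval ran from -0.83 to 1.63. With the number as a replicate block the change was 0.45 (SE 0.08, edgeR adjusted p = 0.00245), with an interval from 0.28 to 0.62. The block thus added Pik3ip1 to the calls, for 2 higher and 1 lower among the 9 genes. That fit called 9.72% of all tested genes, 3.93% higher and 5.79% lower. Pik3ip1 was also the only one of the 9 called for a difference between numbers (edgeR adjusted p = 9.26e-06), against 10.4% of all tested genes. What the numbers stand for is not stated in the labels. The authors' deposited table gives it 0.40 on the log2 scale, at an adjusted p of 0.999.

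The kinase subunits differed widely in level. Per length (counts scaled to the TMM library size and to the deposited gene length, RPKM), the delta catalytic subunit Pik3cd stood far above the other catalytic subunits, at 131 ± 5.75 RPKM in WT (SD, n = 3) and 152 ± 13.4 RPKM in Exon2KO. Pik3ca, the alpha subunit found in most tissues, followed at 11.9 ± 0.656 and 11.9 ± 1.32 RPKM. Pik3cg, the gamma subunit, was at 8.46 ± 0.308 and 9.67 ± 0.704 RPKM, and Pik3cb, the beta subunit, ranged from 1.41 to 2.06 RPKM over the 6 libraries. The ranges of these neighbours over the 6 libraries did not overlap, so the order delta, alpha, gamma, beta held in each library.

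Among regulatory subunits, Pik3r1 and Pik3r5 were the main transcripts and did not differ beyond their spread in WT. Pik3r1 had 27.7 ± 1.80 RPKM in WT and 29.5 ± 2.26 RPKM in Exon2KO, and Pik3r5 had 26.4 ± 2.76 and 39.3 ± 3.06 RPKM. In Exon2KO the lowest Pik3r5 level, 35.9 RPKM, was above the highest Pik3r1 level, 31.5 RPKM. This order rests on the deposited gene lengths, 5550 bases for Pik3r5 and 10079 for Pik3r1. Transcripts of other lengths were not told apart. Pik3r3 ranged from 1.24 to 1.75 RPKM and Pik3r2 from 0.643 to 1.21 RPKM over the 6 libraries. Pik3r6, the alternative partner of the gamma kinase, stayed at or below 0.104 RPKM and was too low to be tested.

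**Figure D2:**
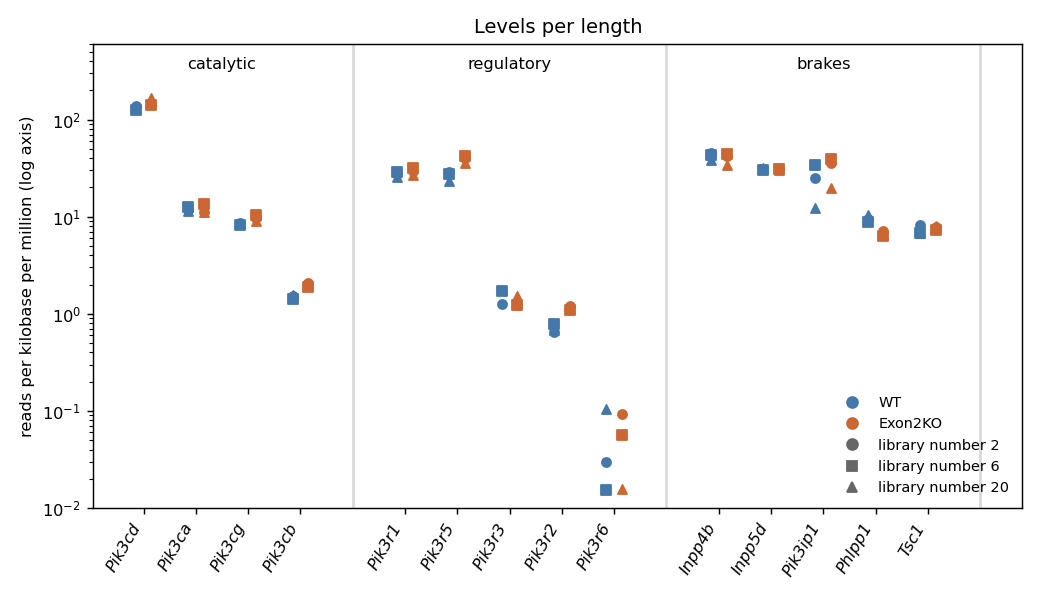
Level per length (RPKM, log axis) of class I PI3K catalytic subunits, regulatory subunits and brakes in each library; colour gives the genotype and marker shape the library number. Pik3cd lies above 125 RPKM in each library, and Pik3r5 reaches 35.9 to 41.9 RPKM in Exon2KO, above Pik3r1 at the deposited gene lengths.

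A set of 5 ratios of levels per length within a library, chosen after the levels were seen, were compared between genotypes. Pik3r5 per Pik3cg, the 2 parts of the gamma complex, was 3.29, 3.38 and 2.72 in WT 2, 6 and 20, and 4.11, 4.05 and 4.02 in Exon2KO. Pik3r5 per Pik3r1 was 0.955 ± 0.0518 in WT (SD, n = 3) and 1.33 ± 0.00633 in Exon2KO (SD, n = 3). Phlpp1 per Phlpp2 was 4.82 ± 0.354 and 4.09 ± 0.390. These 3 ratios did not overlap between genotypes, and each had a two-sided exact permutation p of 0.1, the smallest that 3 against 3 allows (0.167 adjusted over the 5 ratios). Each has a called gene, Pik3r5 or Phlpp1, as its numerator, so their separation is not independent of those calls. The permutation took no account of the library numbers. Pik3cd per Pik3r1 was higher in Exon2KO within each number (4.853 and 4.855, 4.33 and 4.53, 5.08 and 6.18 in WT and Exon2KO 2, 6 and 20). Pik3cd per Pik3cg was lower within numbers 2 and 6 and higher within number 20. Pik3cd per Pik3r1 (4.75 ± 0.386 and 5.19 ± 0.873; exact permutation p = 0.5, adjusted 0.625) and Pik3cd per Pik3cg (15.5 ± 0.306 and 15.8 ± 2.57; exact permutation p = 1) overlapped.

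Neither catalytic subunit of the immune cell type passed the test, although both were a little higher in each Exon2KO library than in each WT library; 17.7% of all tested genes did not overlap between the groups. Pik3cd (ENSMUSG00000039936, chromosome 4, 149649168 to 149702571, minus strand) had 859, 787 and 815 CPM in WT 2, 6 and 20, and 908, 894 and 1046 CPM in Exon2KO 2, 6 and 20. Its log2 fold change was 0.21 (95% interval 0.02 to 0.41, edgeR adjusted p = 0.357), and 0.13 without Exon2KO 20. Pik3cg (ENSMUSG00000020573, chromosome 12, 32173473 to 32208659, minus strand) had 73.2, 68.4 and 72.3 CPM in WT and 82.1, 87.1 and 75.3 CPM in Exon2KO. The highest Pik3cd level was in Exon2KO 20, whereas for Pik3cg that library was the lowest of its genotype. The log2 fold change of Pik3cg was 0.19 (95% interval 0.01 to 0.37, edgeR adjusted p = 0.363).

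Pik3r1 (ENSMUSG00000041417, chromosome 13, 101680563 to 101768217, minus strand), which stabilises the catalytic subunits and holds them inactive until a receptor is engaged, had 285, 293 and 258 CPM in WT 2, 6 and 20. In Exon2KO 2, 6 and 20 it had 301, 317 and 273 CPM. The groups overlapped, with the library numbered 20 lowest in each. The log2 fold change was 0.09 (95% interval -0.10 to 0.28, edgeR adjusted p = 0.801), so a rise of more than 0.28 lay outside the interval.

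Inpp5d, the gene of the lipid phosphatase SHIP1, which removes a phosphate from PIP3, was the steadiest of the 9 genes. Inpp5d (ENSMUSG00000026288, chromosome 1, 87620312 to 87720507, plus strand) had 236, 229 and 239 CPM in WT 2, 6 and 20, and 233, 236 and 229 CPM in Exon2KO 2, 6 and 20. The SD was 5.12 CPM in WT and 3.46 CPM in Exon2KO. Its log2 fold change was -0.0095 (95% interval -0.16 to 0.14, edgeR adjusted p = 0.983).

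Inpp4b (ENSMUSG00000037940, chromosome 8, 81342556 to 82127914, plus strand) encodes a phosphatase that acts on the lipid that SHIP1 produces. It had 589, 567 and 505 CPM in WT 2, 6 and 20, and 544, 581 and 448 CPM in Exon2KO 2, 6 and 20. The groups overlapped, and both libraries numbered 20 were the lowest. Its log2 fold change was -0.08 (95% interval -0.32 to 0.16, edgeR adjusted p = 0.882).

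Tsc1 (ENSMUSG00000026812, chromosome 2, 28641228 to 28691167, plus strand), which encodes the scaffold of the TSC complex, had 96.6, 80.7 and 80.2 CPM in WT 2, 6 and 20. In Exon2KO 2, 6 and 20 it had 91.9, 86.7 and 95.9 CPM, within the range of the WT libraries. The log2 fold change was 0.09 (95% interval -0.11 to 0.30, edgeR adjusted p = 0.818).

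**Figure D3:**
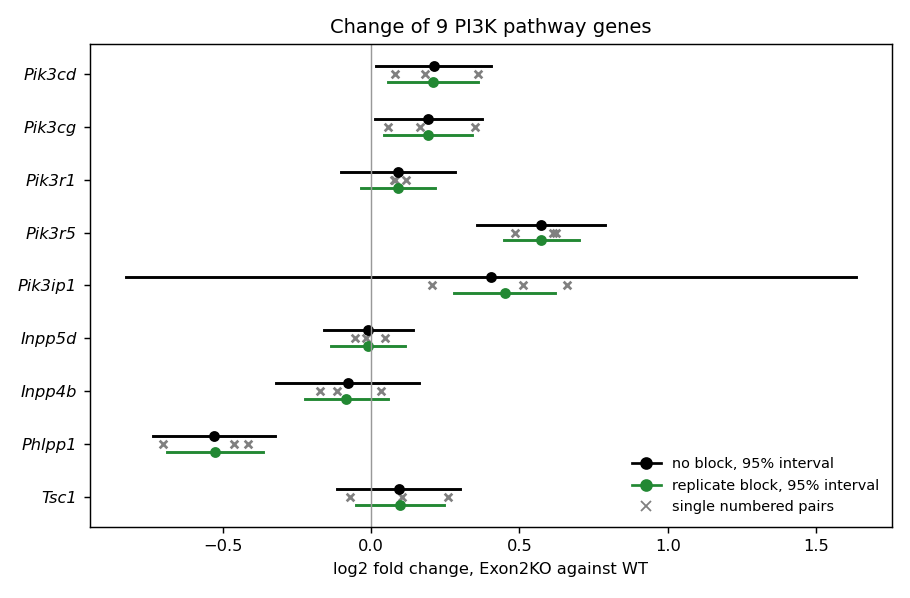
Log2 fold change of Exon2KO against WT for the 9 genes, with 95% intervals, without (black) and with (green) the library number as a replicate block; grey crosses are the 3 numbered pairs. The interval of Pik3ip1 runs from -0.83 to 1.63 without the block and from 0.28 to 0.62 with it, while those of Inpp5d, Inpp4b, Pik3r1 and Tsc1 include 0 in both.

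Compared per length, the order of the brakes by mean level in WT was Inpp4b (42.4 ± 3.32 RPKM, SD, n = 3), Inpp5d (30.9 ± 0.673 RPKM), Pik3ip1 (24.0 ± 11.0 RPKM), Phlpp1 (9.53 ± 0.865 RPKM) and Tsc1 (7.25 ± 0.789 RPKM). Inpp4b and Inpp5d did not overlap over the 6 libraries, whereas the range of Pik3ip1, 12.4 to 39.6 RPKM, overlapped both. In WT 20, Pik3ip1 (12.4 RPKM) was nearer to Phlpp1 (10.4 RPKM) than to Inpp5d (31.4 RPKM).

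Of 57 other pathway genes, 53 were tested and 3 rose, while none fell by the edgeR test. Their median log2 fold change was 0.083, with 38 positive and 15 negative, beside 0.0084 with 7726 positive and 7193 negative over all tested genes, and that of the 9 genes was 0.092. At an unadjusted edgeR p under 0.05 there were 7 higher and 2 lower, beside 765 higher and 1045 lower of all 14919 tested genes. DESeq2 and limma-voom called 5 and 2 of the pathway genes higher and none lower. Over all genes DESeq2 called 649 and limma-voom 328, with 33.6% and 31.1% of these calls higher. For limma-voom this was of 14919 tested genes. DESeq2 was given all 55840 genes, of which 26773 had any count. How many of them received an adjusted p was not recorded, so no share is given for DESeq2. With the replicate block 8 were called higher and 4 lower, beside 3.93% and 5.79% of all tested genes. No class I subunit or adaptor (5 tested), class II or III kinase (4 tested) or other brake (12 tested) was called without the block. In these lists the unadjusted edgeR p was under 0.05 for 3 class I subunit or adaptor genes, 1 class II gene and 0 brakes. The calls were 1 of 18 kinases and mTOR complex genes and 2 of 14 FOXO factors and FOXO targets, beside 2.33% of all tested genes in either direction.

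Klf2, a FOXO-induced transcription factor that keeps T cells in circulation, rose to 429 ± 9.93 CPM in Exon2KO from 295 ± 33.8 CPM in WT (SD, n = 3 each), a difference of 0.54 on the log2 scale with an SE of 0.09 (edgeR adjusted p = 0.0175). S1pr1, the receptor for exit from lymph nodes and a Klf2 target, rose to 384 ± 43.3 CPM in Exon2KO from 251 ± 22.4 CPM in WT (SD, n = 3 each), a difference of 0.61 on the log2 scale with an SE of 0.10 (edgeR adjusted p = 0.0159). Leaving out WT 2 or Exon2KO 2 cost both their calls (edgeR adjusted p from 0.0827 to 0.0961), as did leaving out Exon2KO 6 for Klf2 (0.0532) and WT 6 for S1pr1 (0.0616). Sgk3, a kinase related to AKT that is recruited by PI3K lipids, rose to 21.3 ± 1.90 CPM in Exon2KO from 14.3 ± 0.785 CPM in WT (SD, n = 3 each), a difference of 0.57 on the log2 scale with an SE of 0.12 (edgeR adjusted p = 0.0497). Sgk3 lost its call in each of the 6 fits that left out 1 library, with edgeR adjusted p-values up to 0.229, and without both libraries numbered 20 (0.144). Its call was also lost under the stricter filter of 10 counts per library (edgeR adjusted p = 0.0517), with upper-quartile scaling (0.0540) and with limma-voom (adjusted p = 0.0547).

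The genes called with the block and not without it, named after their values were seen, included further FOXO targets. Values here are from the blocked fit. Bcl2l11, a death gene of the BCL2 family, changed by 0.50 (edgeR adjusted p = 8.52e-05), and Ccr7, a chemokine receptor that directs cells into lymph nodes, by 0.36 (adjusted p = 0.00480). Rictor, the defining subunit of mTOR complex 2, changed by 0.37 (edgeR adjusted p = 0.00110), Sgk1 by 0.36 (adjusted p = 0.0123) and Ddit4, an inhibitor of mTOR complex 1, by 0.42 (adjusted p = 0.000338). Lower under the block were Il7r (-0.43, edgeR adjusted p = 0.00709), Inppl1 (-0.35, adjusted p = 0.00405), Sesn1 (-0.28, adjusted p = 0.0185) and Pik3ap1 (-0.85, adjusted p = 0.0192). Bcl2l11 and Rictor also passed with DESeq2 (adjusted p = 0.00897 and 0.0262) and with no count filter (edgeR adjusted p = 0.00396 and 0.0153), and Bcl2l11 without Exon2KO 20 (0.0467) and without both libraries numbered 20 (0.0297). The other 7 passed in no other alternative. Il7r and Sesn1 are FOXO targets as well, so the FOXO list (14 tested) held 4 higher and 2 lower calls in the blocked fit. That fit called 3.93% of all tested genes higher and 5.79% lower. In unblocked fits with 1 library left out, Sgk1 ran from 0.12 to 0.68, Ddit4 from 0.19 to 0.66 and Ccr7 from 0.19 to 0.44. Inppl1 ran from -0.64 to -0.085, Sesn1 from -0.46 to -0.18 and Pik3ap1 from -1.02 to -0.54. Il7r, at -0.34 with an SE of 0.75 in the unblocked fit of all libraries, ran from -0.83 to 0.069. Its direction turned without WT 6 (0.041) and without Exon2KO 20 (0.069). None of these 7 genes was called in those fits.

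Pik3ap1, an adaptor known from B cells, had 6.01, 5.51 and 9.95 CPM in WT 2, 6 and 20 and 2.61, 4.46 and 4.78 CPM in Exon2KO 2, 6 and 20, or -0.86 on the log2 scale without the block (SE 0.31, edgeR adjusted p = 0.260). The 4 B cell markers summed to between 28.8 and 29.8 CPM in WT and between 22.3 and 24.8 CPM in Exon2KO. Of these markers Cd79b did not overlap between the groups (20.5 to 22.9 against 14.0 to 16.9 CPM), while Cd79a, Ms4a1 and Pax5 did. The part of B cell RNA in the Pik3ap1 values was not tested. Of the low class I subunits, Pik3cb had a log2 fold change of 0.39 with an SE of 0.13 (edgeR adjusted p = 0.229), Pik3r2 one of 0.70 (SE 0.22, adjusted p = 0.193) and Pik3r3 one of -0.24 (SE 0.20, adjusted p = 0.759), none past the threshold. The class II genes Pik3c2a and Pik3c2b had values of -0.24 with an SE of 0.10 (edgeR adjusted p = 0.369) and 0.21 (SE 0.15, adjusted p = 0.681).

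**Figure D4:**
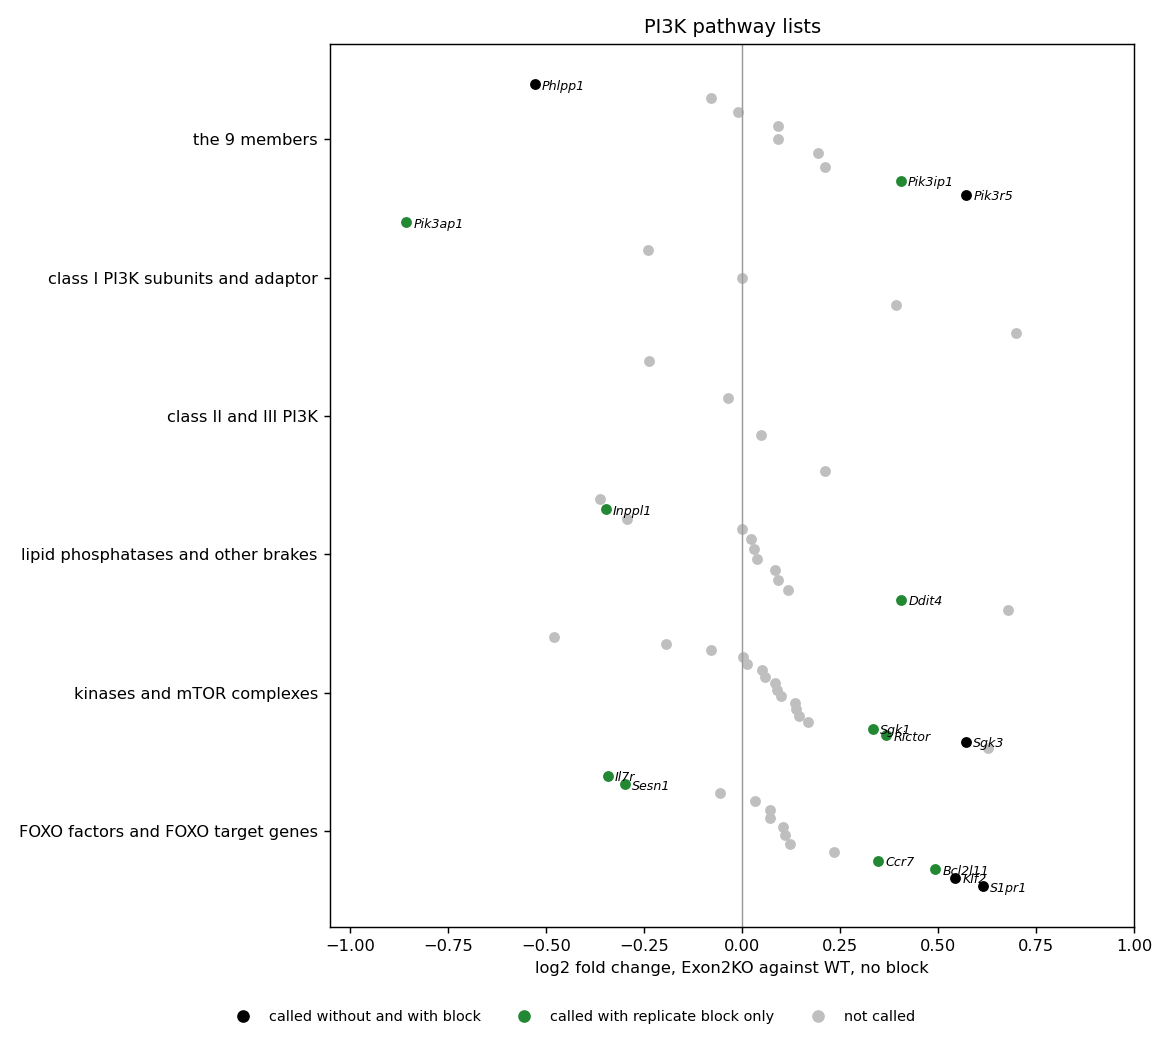
Log2 fold change of Exon2KO against WT (horizontal axis, no block) for the 9 genes and 5 lists of other pathway genes, 1 point per tested gene, spread vertically in order of value. Black points were called without the block (Phlpp1, Pik3r5, Sgk3, Klf2 and S1pr1), green points with the replicate block and not without it, and grey points in neither of these fits.

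The genes with a pattern most like that of each called gene were sought among 9357 protein-coding genes with a mean of at least 5 CPM, by the root mean square difference of mean-centred log2 CPM over the 6 libraries. Closest to Phlpp1 were Slc36a4 (difference 0.0607), Ptch1 (0.0662) and Phyh (0.0685). Closest to Pik3r5 were Mfhas1 (0.0531), Ifngr2 (0.0729) and Bcl2l11 (0.0742). Of these 6, Mfhas1 (edgeR adjusted p = 0.0459) and Ifngr2, a chain of the interferon gamma receptor (adjusted p = 0.0339), were called. Ptch1, the Hedgehog receptor gene (0.0559), Phyh (0.0694), Bcl2l11 (0.0759) and Slc36a4 (0.146) were not. With the replicate block these 4 were called as well (edgeR adjusted p = 0.000926, 0.00693, 8.52e-05 and 0.0157). When 1 library was left out, Mfhas1 was called in 1 of 6 fits (edgeR adjusted p up to 0.230; called without Exon2KO 20) and Ifngr2 in 2 of 6 (up to 0.184; called without WT 6 and without Exon2KO 20). The 6 libraries share the genotype split, so genes chosen for this likeness carry the genotype difference by selection. Their calls are therefore no separate result.

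Genes that overlap the 9 had few counts of their own; reads that fall on both genes were not measured. The overlapping gene with the most counts was Gm12592, on the strand opposite to Pik3ip1, with 174 counts over all libraries against 13328 for Pik3ip1. Phlpp1 had 6217 counts in all, the fewest of the 9 genes.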

How the data were processed

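RNA from 3 WT and 3 Exon2KO mouse Treg samples was sequenced, and the authors deposited 1 table of counts (whole reads or fragments per gene, not normalized, per the file headers). The authors' FPKM values were not used. Per the file headers, the table also holds the authors' comparison, with group means as a scaled count signal (not used), raw and adjusted p-values and the log2 fold change. The submitters' processing notes name HISAT2 2.0.5, StringTie 1.3.3b, featureCounts 1.5.0-p3, DESeq2 1.16.1 and mm10; the strand setting is not given in the sources used here. All 9 gene positions match GENCODE M21 (GRCm38).

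Columns name the genotype and a number that is in no sample title, so they were assigned to a group only. Deviations from the group means correlated across 14919 genes between same-numbered libraries (0.272, 0.369 and 0.494 for numbers 2, 6 and 20). The numbers were taken as pairs from these values and the column names. Correlations between differently numbered libraries were not kept for comparison. The same counts served to choose the block and to fit it, so its calls rest on that choice. P-values measure the spread between these samples.

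Counts were tested with edgeR 4.0.16 in R 4.3.3 (filterByExpr, TMM, robust quasi-likelihood, two-sided, all 6 libraries, no covariate), with Benjamini-Hochberg adjustment over all tested genes and a call at an adjusted p under 0.05. The SE is the log2 fold change divided by the root of F. Fold changes are Exon2KO over WT. The limit that a count of 0 allows, 3 counts, is 0.143 to 0.167 CPM, for counting error only. The scripts were tested on simulated data. Alternatives were other filters and scalings, DESeq2 1.42.0, limma-voom (limma 3.58.1), the replicate block and left-out libraries.

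The genes and lists were chosen with earlier results of these data known. Named pathway genes were those called in each list, or else the 2 with the smallest p at a mean of at least 5 CPM, and the class I subunits. The GC box search and the ratios were added after seeing the data. Some listed genes are not reported here and were left out of the list counts and sums.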

Additional observations from a re-analysis of the deposited data

How the results depend on the processing

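The count of genes called over the whole table, 348, became 617 with no count filter, 649 with DESeq2 and 1450 with the replicate block, and ran from 86 to 314 when 1 library was left out. The 2 calls among the 9 genes held under the other filters, scalings and tools, ran from 0 to 2 when 1 library was left out, and became 1 without both libraries numbered 20. The 3 calls among the other pathway genes became 5 with no count filter, 5 with DESeq2, 12 with the block and 2 with the stricter filter of 10 counts per library, with upper-quartile scaling and with limma-voom, and ran from 0 to 3 with 1 library left out. The residual coefficient of variation was 17.3% without and 8.56% with the block; other causes were not tested. The block took no call from the 9 genes.

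Pik3r5 and Phlpp1 kept their direction in all 14 alternatives, from 0.49 to 0.63 and from -0.59 to -0.44. Pik3ip1 ran from 0.09 to 0.76 and passed the threshold with the block only. Inpp5d turned to 0.0128 without both libraries numbered 20, and ran from -0.030 to 0.0021 with 1 library left out; Inpp4b ran from -0.17 to 0.018, Pik3cd from 0.13 to 0.24, Pik3cg from 0.13 to 0.24, Pik3r1 from 0.031 to 0.15 and Tsc1 from 0.045 to 0.18 (0.0093 without both libraries numbered 20). Pik3ca turned to 0.0014 with RLE size factors, 0.0027 with DESeq2 and 0.024 without both libraries numbered 20, and ran from -0.11 to 0.049 with 1 left out. Il7r ran from -0.83 to 0.069. With 1 library left out, Phlpp2 ran from -0.40 to -0.19, Pik3r3 from -0.38 to -0.16, Pik3c2a from -0.34 to -0.16 and Pik3c2b from 0.15 to 0.28. Without TMM scaling, WT levels per length of the 10 class I subunit and adaptor genes moved by less than 1 SD; other levels were not rerun. The effect of depth was not tested; Pik3r6 had too few counts to be tested.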
